A study of Mus musculus with 2 samples.

Results

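This report describes 37 mouse genes of the endoplasmic reticulum (ER), the compartment in which secreted proteins are folded, in single cells of pancreatic islets from virgin and multiparous mice. The genes were taken by name from both count matrices, which list 31053 genes, and all 37 were found by their primary symbol. By function they fall into the BiP and GRP94 chaperone system (8 genes), the lectin chaperones (2), the prolyl isomerases (3), disulfide exchange (7), ER-associated degradation (9), the sensors and transducer of the unfolded protein response (4), and translocation with signal peptide removal (4). Each group of mice is represented by 1 droplet library of 3′ end counts. The multipara library came from female C57BL/6J mice that were 9 weeks old at first mating, went through 3 consecutive pregnancies and were studied 3 weeks after the last delivery. The virgin library came from age-matched female C57BL/6J mice without pregnancies. Islets of both groups were kept in culture medium with serum and dissociated with trypsin before capture, and the number of mice behind each library is not in the labels. With 1 library per group no difference between virgin and multipara can be tested, and all intervals below cover counting error only.

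Beta cells make insulin in large amounts, and proinsulin enters the ER through the Sec61 channel, loses its signal peptide, folds with the help of chaperones and forms disulfide bonds there. Proteins that fail to fold are extracted and degraded by ER-associated degradation. When unfolded proteins accumulate, the sensors IRE1 (Ern1), ATF6 and PERK (Eif2ak3) are activated, and the factors XBP1 and ATF6 raise transcription of chaperone and degradation genes, many of which carry a short promoter motif called the ER stress response element.

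This promoter motif was found in 9 of the 37 genes, and 5 promoters are shown to let its place be seen. RefSeq promoter windows (GRCm38.p6, 250 bases before to 50 bases after the start) were found for 32 of the 37 genes, and not for Hyou1, Manf, Derl1, Atf6 and Sec11c. The ER stress response element, searched as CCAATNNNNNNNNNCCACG on both strands, was found in 9 of the 32 genes (28.1%) and in 37 of all 27025 genes with a window (0.137%), or in 39 of the 32851 windows (0.119%). The 9 genes were Hspa5, Hsp90b1, Dnajc3, Calr, Canx, Pdia6, Creld2, Syvn1 and Derl3. Element II, searched as ATTGGNCCACG, was found in Dnajb11 and Herpud1 and in 12 of all genes (0.0444%). The unfolded protein response element, searched as TGACGTGG, was found in Txndc5 and in 193 of all genes (0.714%). No gene of the 32 held more than 1 of the 3 motifs, and 12 (37.5%) held 1 of them, against 239 of all genes (0.884%). A match is a string of letters and no measured binding site.

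The 250 bases before the RefSeq start are printed for 3 abundant chaperones (Hspa5, Hsp90b1 and Calr), for the gene with the largest ratio between the libraries (Derl3) and for Herpud1 as the example of element II. The fixed letters of the motif are in capitals, the strand is that of the gene, and a motif on the other strand reads CGTGG followed by ATTGG. The windows lie at chr2:34771840-34772089 on the plus strand, chr10:86705445-86705694 on the minus strand, chr8:84846932-84847181 on the minus strand, chr10:75893148-75893397 on the plus strand and chr8:94386179-94386428 on the plus strand. The GENCODE M21 models of Hspa5, Hsp90b1 and Calr begin inside these windows, so part of each printed stretch is transcribed in that annotation.
Hspa5: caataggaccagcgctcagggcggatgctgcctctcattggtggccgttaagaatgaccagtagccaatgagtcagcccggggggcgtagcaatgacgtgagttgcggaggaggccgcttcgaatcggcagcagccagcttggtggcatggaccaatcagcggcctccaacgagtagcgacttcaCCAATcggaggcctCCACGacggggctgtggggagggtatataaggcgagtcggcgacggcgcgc
Hsp90b1: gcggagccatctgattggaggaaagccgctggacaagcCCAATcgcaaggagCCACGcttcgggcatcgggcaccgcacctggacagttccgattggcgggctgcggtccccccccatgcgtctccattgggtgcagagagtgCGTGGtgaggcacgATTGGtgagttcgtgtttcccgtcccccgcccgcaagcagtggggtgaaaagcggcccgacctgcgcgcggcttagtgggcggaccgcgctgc
Calr: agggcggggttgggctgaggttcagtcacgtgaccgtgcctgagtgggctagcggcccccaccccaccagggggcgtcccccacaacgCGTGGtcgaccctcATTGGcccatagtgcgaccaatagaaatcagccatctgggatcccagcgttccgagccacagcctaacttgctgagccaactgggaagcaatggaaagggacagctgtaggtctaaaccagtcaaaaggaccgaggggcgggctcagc
Derl3: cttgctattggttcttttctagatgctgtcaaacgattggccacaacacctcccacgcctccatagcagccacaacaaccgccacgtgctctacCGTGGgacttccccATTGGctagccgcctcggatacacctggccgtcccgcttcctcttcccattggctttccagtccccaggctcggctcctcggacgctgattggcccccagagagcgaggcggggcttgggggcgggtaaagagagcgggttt
Herpud1: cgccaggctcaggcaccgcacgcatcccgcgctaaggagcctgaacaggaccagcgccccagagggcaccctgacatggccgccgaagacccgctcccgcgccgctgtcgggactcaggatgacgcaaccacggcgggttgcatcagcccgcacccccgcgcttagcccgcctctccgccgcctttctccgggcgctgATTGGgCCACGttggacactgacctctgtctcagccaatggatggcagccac
The motif ended 47 bases before the start in Hspa5, 138 bases before it in Derl3, 144 bases before it in Calr and 42 bases before it in Herpud1. Hsp90b1 held 2 copies, ending 194 and 89 bases before the start. In all of the 10 matches to the first motif the last base lay between 194 and 26 bases before the start.

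Cells were assigned to types by gates on hormone or marker counts. A beta-gated cell had at least 5% of its unique molecular identifiers (UMIs) from Ins1 and Ins2 and every other hormone below 1/5 of that, and alpha (Gcg), delta (Sst) and PP (Ppy) gates were set in the same way. The virgin library held 5463 barcodes and 94853806 UMIs, of which 4330 cells were kept and 3933 gated. The multipara library held 5075 barcodes and 82503776 UMIs, of which 3330 were kept and 3000 gated. Beta gates held 1825 virgin and 1590 multipara cells with a median of 29979 and 32204 UMIs per cell, alpha gates 1040 and 646 cells, delta gates 194 and 177, and PP gates 85 and 89. Of the delta-gated cells, 34.5% and 39.0% lay near a gate limit (own hormone under 10% of UMIs, or another hormone at 1/10 of it or more), against 3.34% and 2.33% of the beta-gated cells. Beta cell genes that the gates did not use, Iapp, Slc2a2, Mafa, Nkx6-1 and G6pc2, together had 44631 and 45036 CPM in the beta gates and 1212 and 1274 CPM in the alpha gates, CPM being UMIs over the total UMIs of the gate on the usual scale, with each molecule counted once at its 3′ end. They also reached 24674 and 28250 CPM in the delta gates, nearly all of it from Iapp. The libraries shared 7 barcodes, of which 3 were among kept cells and none were in the same gate.

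The 37 genes were more abundant in beta-gated cells than in any other endocrine gate once the hormones, which took 57.2% and 58.5% of all beta UMIs, were set aside. Summed over the genes, the level was 17612 CPM of non-hormone UMIs in virgin and 20997 in multipara beta-gated cells. The alpha gates had 8486 and 9374, the delta gates 9529 and 9392, and the PP gates 9001 and 9068. On the scale of all UMIs the delta gates came close to the beta gates, as hormones took only 21.9% and 24.5% of the delta UMIs. The summed level was then 7546 and 8721 CPM in beta-gated cells, 7439 and 7087 CPM in delta-gated cells, 5239 and 5542 CPM in alpha-gated cells and 5058 and 4896 CPM in PP-gated cells. On the non-hormone scale 34 of the 37 genes were highest in beta among the 4 endocrine gates in both libraries, with intervals clear of the next gate in 32. On the scale of all UMIs this held for 19 genes, and 11 were highest in delta. The order of the gates was not counted over all genes, so these counts have no share beside them.

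Beta and alpha gates were compared relative to the median gene of each gate, with a gene called when it was past 1.2-fold and its 95% interval excluded 0 on the log2 scale. In virgin, 33 of the 37 genes were called higher in beta, against 29.8% of the 10846 genes tested, and 0 were called lower, against 28.6%. In multipara, 34 were called higher, against 30.2% of 10394, and 0 were called lower, against 29%. The median log2 ratio of the 37 genes was 1.03 in virgin and 1.12 in multipara, a 2.04-fold and 2.18-fold higher level in beta.

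The largest beta to alpha ratio belonged to Derl3, a derlin of the degradation machinery that is made by few cell types. Its log2 ratio was 3.14 (2.41 to 3.96) in virgin and 4.79 (3.86 to 5.92) in multipara, from 333 and 798 UMIs in beta and 16 and 9 UMIs in alpha. Edem1, a lectin that hands misfolded glycoproteins to degradation, followed with 2.56 (2.28 to 2.85) and 3.34 (2.96 to 3.74). Fkbp11, a membrane-bound prolyl isomerase of secretory cells, had 2.55 (2.37 to 2.73) and 2.76 (2.58 to 2.94). Sdf2l1, a cofactor of BiP, had an interval of 1.90 to 2.11 in virgin and of 1.88 to 2.09 in multipara. At the other end stood Os9, a lectin of the degradation complex, with -0.17 and -0.15, and the sensor gene Eif2ak3 with -0.10 (-0.29 to 0.10) and -0.14 (-0.36 to 0.08). The steps of the pathway were thus not shifted alike between beta and alpha.

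Across 9 gates with at least 30 cells in both libraries, 23 genes were highest in beta in both libraries on the non-hormone scale and 5 were highest in the B cell gate. On the scale of all UMIs this order turned, with 5 genes highest in beta, 4 in delta and 11 in the B cell gate. Here too the order was not counted over all genes. Hspa5, which encodes the major ER chaperone BiP, had 2848 and 3272 CPM of non-hormone UMIs in virgin and multipara beta-gated cells. The next gate was the macrophage gate with 1710 and 2631 CPM, and the other gates lay between 613 and 1149 CPM. On the scale of all UMIs the macrophage gate was first, with 1690 and 2557 CPM against 1220 and 1359 CPM in beta. Hyou1, a chaperone that releases nucleotide from BiP, had 224 and 276 CPM in beta and at most 89.0 CPM elsewhere. Fkbp11 had 175 and 301 CPM in beta, 102 and 123 in PP, 136 and 16.7 in the B cell gate, and at most 7.13 CPM in the endothelial and macrophage gates. Txndc5, a disulfide exchange enzyme, had 109.7 and 113 CPM in beta and 799.6 and 540 CPM in the B cell gate. Without the B cell-gated cells that had 10 or more UMIs of plasma cell genes, left out after seeing the data, the B cell level of Txndc5 was 64.4 and 60.0 CPM, below beta. That of Fkbp11 was 2.01 and 8.57 CPM, from 1 UMI in each library, and its 16.7 CPM in multipara had come from 3 UMIs. Edem1, Edem2 and Derl3, with 1 to 13 UMIs left per library, were also below their beta levels, at 26.1 and 25.7, 14.1 and 25.7, and 10.1 and 8.57 CPM, while Eif2ak3 kept the higher level in the B cell gate, at 64.4 and 129 CPM against 30.3 and 33.2 in beta. Ppib, a soluble prolyl isomerase, was lower in all 4 endocrine gates, at 134 to 317 CPM, than in the pericyte gate with 551 and 570.1 CPM.

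**Figure D1:**
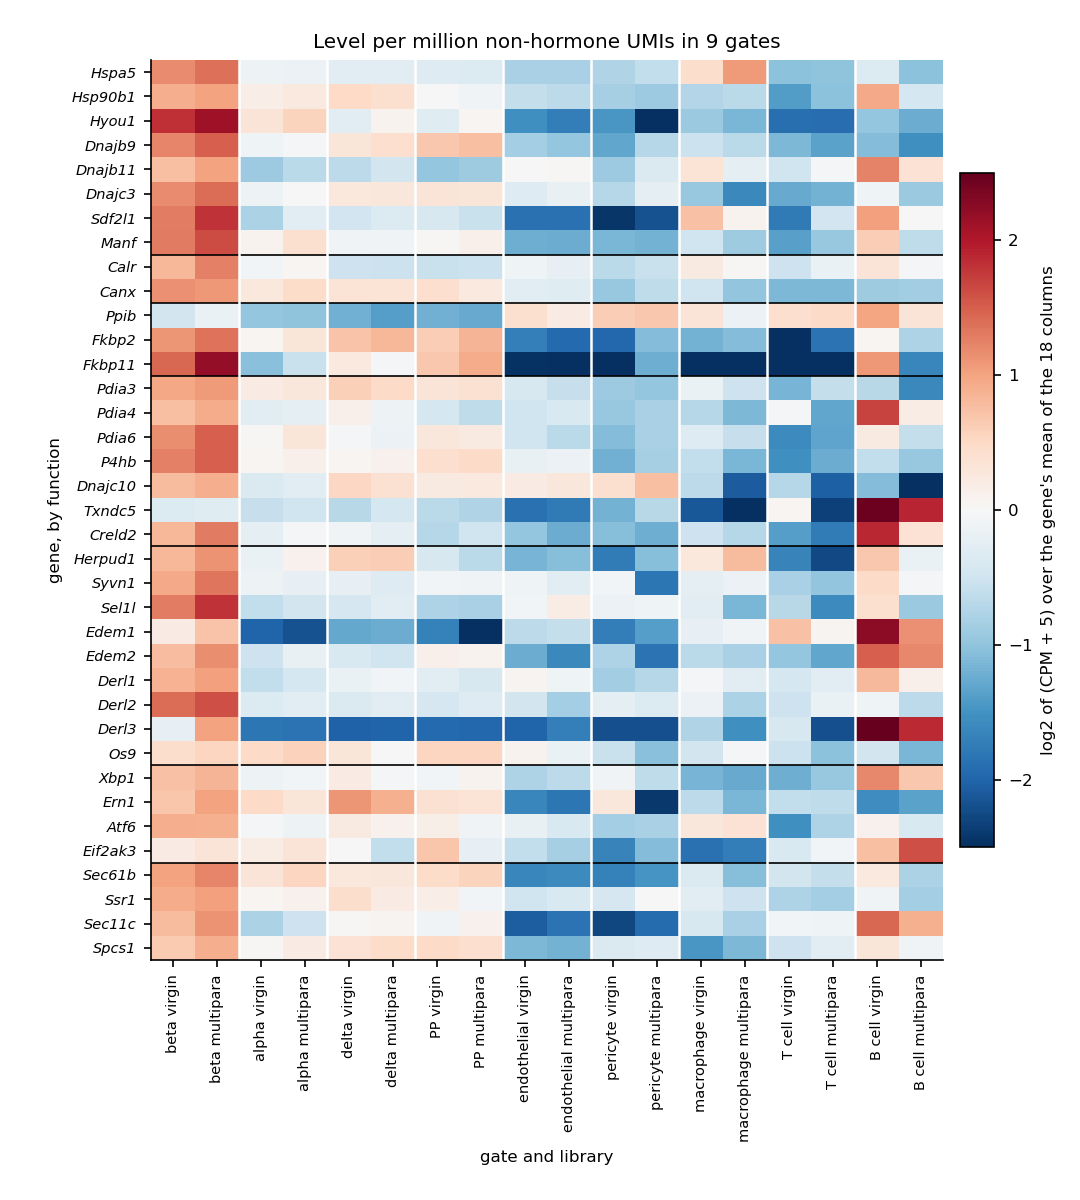
Level of each of the 37 genes (rows, ordered by function) in 9 gates of the virgin and multipara libraries (columns), as log2 of CPM of non-hormone UMIs plus 5, relative to the mean of the gene's 18 columns, with color limited to 2.5 in either direction. Most rows are highest in the 2 beta columns, and Txndc5, Edem1 and Derl3 are highest in the 2 B cell columns, which include cells with plasma cell transcripts and fall below beta for these genes without them.

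In beta-gated cells, most of the genes of ER folding and degradation were higher in the multipara than in the virgin library. Relative to the median gene, 23 of the 37 genes were higher (past 1.2-fold, interval clear of 0), against 8.41% of 10970 genes tested, and 0 were lower, against 8.16%. The median log2 ratio of the 37 genes was 0.30 (1.23-fold), beside a 90th percentile of 0.26 over all genes tested. The study had already reported Sdf2l1 and Fkbp11 as upregulated in multiparous beta cells of its single-cell data. The interval lay above 0 in 35 genes and included 0 in Canx and Atf6. Intervals above 0 without the fold limit were not counted over all genes, so the 35 has no share beside it. Counting intervals are narrow at the depth of the beta gates, and the 35 is no measure of how far the genes stand out. The count of 23 higher genes depended on the cell filter, on the scale and on the weight of the cells. With no cell filter it was 18, with a median of 0.26, where 8.69% of all genes were higher. The filter and doublet removal kept 79.3% of virgin and 65.6% of multipara barcodes. It was 13 on plain CPM, where the median of all genes was -0.09 and 4.73% of all genes were higher and 15.3% lower, and 12 when each cell was weighted equally, where 18.3% were higher. In the 172 virgin and 208 multipara beta-gated cells with fewer than 5500 UMIs, a split chosen after seeing the data, the summed level was 9022 and 8465 CPM, and in the 1653 and 1382 deeper cells it was 7534 and 8723 CPM. In the shallow cells 4 of 18 genes were higher and 4 lower (29.1% and 18.3% of the 678 genes tested), and in the deeper cells 24 of 37 were higher and 0 lower (8.39% and 8.07% of 10943). The part of depth in these counts was not tested.

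**Figure D2:**
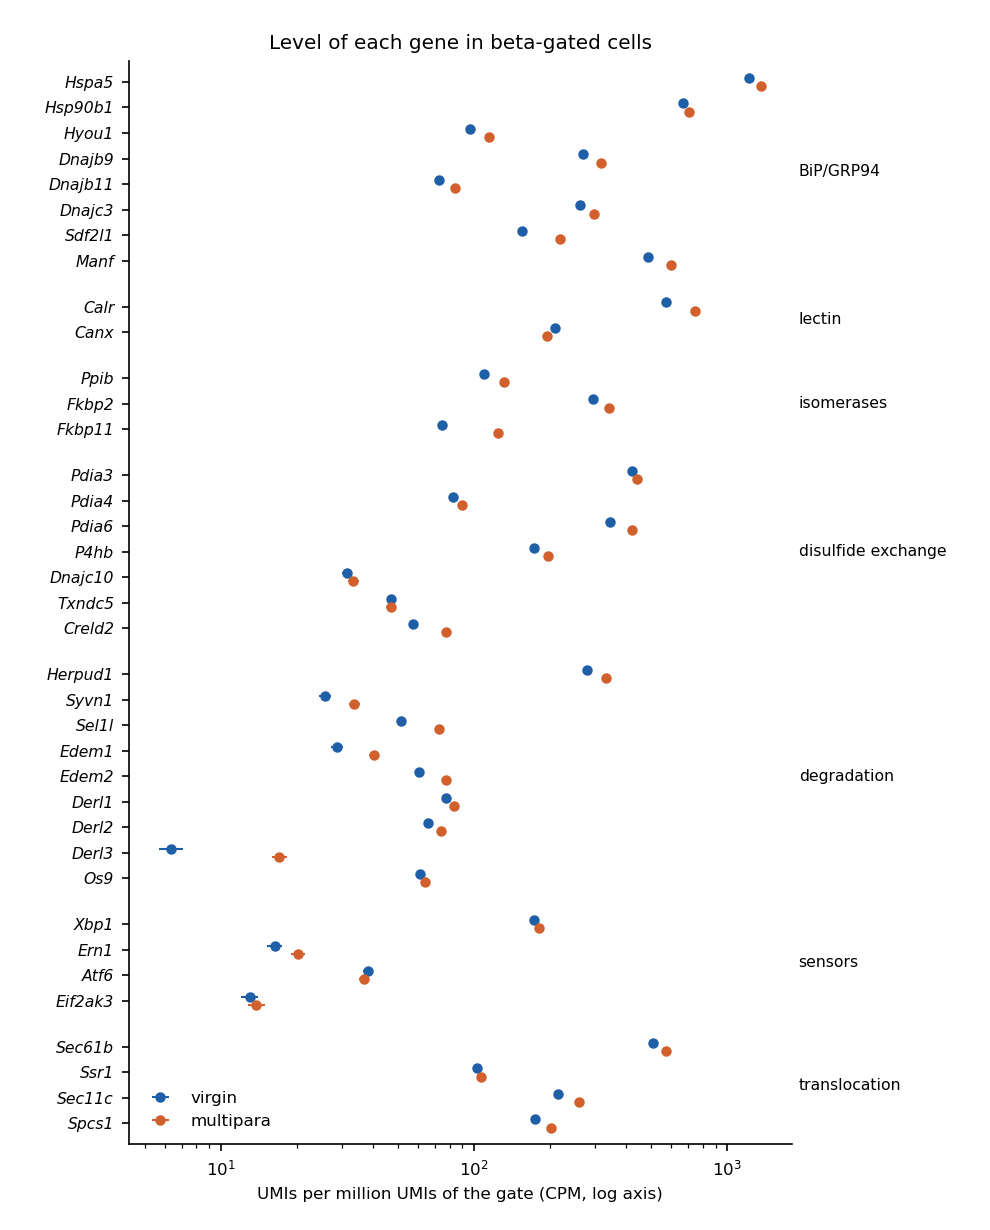
Level of each of the 37 genes in beta-gated cells of the virgin and multipara libraries, in CPM of the gate on a log axis, with exact Poisson 95% intervals that are mostly narrower than the symbols. The multipara symbol lies to the right for most genes, and the widest gap is that of Derl3, at 6.36 and 17.0 CPM.

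The BiP and GRP94 system held the gene with the most UMIs in both libraries, Hspa5, and 6 of its 8 genes were higher in multipara. Hspa5 had 1220 CPM in virgin and 1359 CPM in multipara beta-gated cells, a log2 ratio of 0.24 (0.23 to 0.26) that stayed under the 1.2-fold limit. Hsp90b1, which encodes GRP94, the ER form of HSP90, had 671 and 705 CPM and a ratio of 0.16 (0.14 to 0.18). These 2 ratios were the lowest of the group. Sdf2l1 had 154 and 218 CPM and a ratio of 0.59 (0.55 to 0.63). Manf, a secreted ER protein that binds BiP, had 487 and 599.6 CPM and a ratio of 0.39 (0.36 to 0.41). Hyou1 had 96.0 and 114 CPM and a ratio of 0.34 (0.29 to 0.40). The J-domain cochaperones Dnajb9, Dnajb11 and Dnajc3, which deliver clients to BiP, had ratios of 0.32, 0.30 and 0.27.

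The lectin chaperones bind newly made glycoproteins and form a pair, of which the soluble member was higher and the membrane-bound member was not. Calr (calreticulin) had 573 and 744 CPM and a log2 ratio of 0.47 (0.44 to 0.49). Canx (calnexin) had 209 and 194 CPM and a ratio of -0.01 (-0.05 to 0.03). All 3 prolyl isomerases, which speed the turning of bonds before proline, were higher. Fkbp11 had 75.1 and 125 CPM and a ratio of 0.82 (0.77 to 0.88), exceeded among the 37 genes only by that of Derl3. Ppib had 109.9 and 132 CPM with a ratio of 0.35 (0.30 to 0.40), and Fkbp2 had 296 and 342 CPM with a ratio of 0.30 (0.27 to 0.33).

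Of the 7 disulfide exchange genes, 3 were higher in multipara. Creld2, an ER protein with disulfide isomerase activity, had 57.2 and 77.8 CPM and a log2 ratio of 0.53 (0.46 to 0.60). Pdia6 had 344 and 419 CPM and a ratio of 0.37 (0.34 to 0.40). P4hb, the classical protein disulfide isomerase, had 172 and 196 CPM and a ratio of 0.28 (0.23 to 0.32), which became -0.025 when each cell was weighted equally. The other 4 enzymes of the group did not pass the 1.2-fold limit. Pdia3, the partner of the lectin chaperones, had the highest level of the group with 421 and 441 CPM and a ratio of 0.16 (0.13 to 0.18). The ratios of Pdia4, Dnajc10 and Txndc5 were 0.22, 0.17 and 0.09, and that of Txndc5 became -0.052 with equal weights.

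Degradation was the group with the highest median log2 ratio among the 7, at 0.44, and 6 of its 9 genes were higher. Derl3 had 6.36 CPM (333 UMIs) in virgin and 17.0 CPM (798 UMIs) in multipara, a ratio of 1.51 (1.33 to 1.70), or 2.85-fold. Its paralogs Derl1 and Derl2, which are made in most cells, had 77.5 and 83.3 CPM and 66.0 and 74.3 CPM, with ratios of 0.19 (0.13 to 0.26) and 0.26 (0.19 to 0.33). Of the 3 derlins, Derl3 alone was past the limit. Sel1l, the scaffold of the HRD1 ubiquitin ligase, had 51.4 and 72.6 CPM and a ratio of 0.59 (0.51 to 0.66). Syvn1, the ligase HRD1 itself, had 25.9 and 33.6 CPM and a ratio of 0.47 (0.36 to 0.57). Edem1 and Edem2, which trim and deliver misfolded glycoproteins, had ratios of 0.57 (0.47 to 0.67) and 0.44 (0.37 to 0.51). Herpud1, a membrane protein of the same complex, had the highest level of the group with 279 and 331 CPM and a ratio of 0.33 (0.30 to 0.37), and Os9 had 0.15 (0.08 to 0.22).

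The 4 genes of the sensors and transducer had the lowest median log2 ratio among the 7 groups, at 0.16. Ern1, the sensor IRE1 that splices Xbp1, had 16.4 and 20.2 CPM and a log2 ratio of 0.39 (0.26 to 0.53), and was the only one of the 4 past the limit. Xbp1 had 172 and 180.0 CPM and a ratio of 0.15 (0.11 to 0.19). Eif2ak3 had 13.0 and 13.8 CPM and a ratio of 0.18 (0.02 to 0.34), and Atf6 had 38.0 and 36.7 CPM and a ratio of 0.04 (-0.06 to 0.13), which was -0.052 on plain CPM. Spliced and unspliced Xbp1 were counted together, and cleavage of ATF6 and phosphorylation of IRE1 and PERK are not visible in these counts.

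Of the 4 genes of entry into the ER, 3 were higher. Sec61b, a subunit of the translocation channel, had 507 and 573 CPM and a log2 ratio of 0.27 (0.24 to 0.29), close to the limit. Sec11c and Spcs1, subunits of the signal peptidase that cuts preproinsulin, had 214 and 260.1 CPM and 174 and 201 CPM, with ratios of 0.37 (0.33 to 0.41) and 0.30 (0.26 to 0.34). Ssr1, a subunit of the translocon-associated complex, had a ratio of 0.14 (0.09 to 0.20), which became -0.073 with equal weights. Set against the promoter motif, 6 of the 9 genes that held the ER stress response element were higher, with a median ratio of 0.37, as were 14 of the 23 without it, with a median of 0.30.

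In alpha-gated cells, 10 of the 36 genes tested were higher in multipara, against 4.89% of 9501 genes, and 0 were lower, against 5.2%, with a median log2 ratio of 0.15. Derl3, with 16 and 9 UMIs, was below the minimum of 100 UMIs. The 10 genes were Hyou1, Dnajb11, Sdf2l1, Manf, Fkbp2, Fkbp11, Pdia6, Herpud1, Edem2 and Sec11c, and the virgin and multipara cells behind them came from the same 2 libraries as the beta-gated cells. Sdf2l1 had 51.0 and 71.9 CPM and a ratio of 0.59 (0.45 to 0.73), and Fkbp11 had 17.0 and 24.0 CPM and a ratio of 0.59 (0.34 to 0.84). On plain CPM, where the median of all genes was -0.09, 3 genes were higher and 1 was lower, against 2.12% and 11.9% of all genes.

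The difference between the beta and the alpha ratio was clear of 0 for 12 of the 36 genes, with 11 larger in beta, against 8.16% of the 9267 genes tested in both gates, and 1 smaller, against 9.04%. The 11 genes were Hspa5, Dnajb9, Dnajc3, Calr, Ppib, P4hb, Creld2, Syvn1, Sel1l, Edem1 and Ern1. Hspa5 had 709 and 676 CPM in alpha-gated cells and a ratio of 0.03 (-0.02 to 0.07), which was smaller than in beta by 0.22 (0.17 to 0.26). For Calr the difference was 0.32 (0.26 to 0.38), for Ppib 0.36 (0.24 to 0.48), for Ern1 0.57 (0.27 to 0.86) and for Edem1 0.80 (0.31 to 1.29). The 1 gene with a smaller ratio in beta was Canx, with 162 and 177 CPM in alpha, a ratio of 0.22 (0.14 to 0.31) there and a difference of -0.24 (-0.33 to -0.15). Calr had 0.15 (0.09 to 0.20) in alpha, so the intervals of the lectin pair overlapped there and were apart in beta. These intervals cover the counts of 2 libraries and not the spread between mice.

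In delta-gated cells, 0 of the 33 genes tested were higher, against 4.83% of 4598 genes, and 0 were lower, against 3.52%, with a median log2 ratio of 0.04. Without the interval, 2 were past 1.2-fold upward and 2 downward, against 12.0% and 12.5% of all genes. The interval lay above 0 for Fkbp2, at 0.15 (0.01 to 0.30), and included 0 for the other 32. Counts were low there, and for genes such as Edem2, at -0.12 (-0.56 to 0.33), a 1.2-fold difference in either direction was not detectable at this depth. The acinar list had 116 and 142 CPM in the delta gates, and with cells at 0.5% or more of acinar UMIs left out 0 genes were still higher and 0 lower, with a median of 0.04. For 20 of the 33 genes, Hspa5, Calr, Fkbp11 and Xbp1 among them, the beta ratio was larger than the delta ratio with an interval of the difference clear of 0, against 6.51% of the 4549 genes tested in both gates, and for 0 it was smaller, against 7.45%. For Fkbp11, which had 58.2 and 45.3 CPM in delta-gated cells, the difference was 1.10 (0.68 to 1.52). In PP-gated cells, 1 of 30 genes was higher, Fkbp2 at 274 and 312 CPM, against 4.02% of 2861 genes, and 0 were lower, against 3.39%.

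**Figure D3:**
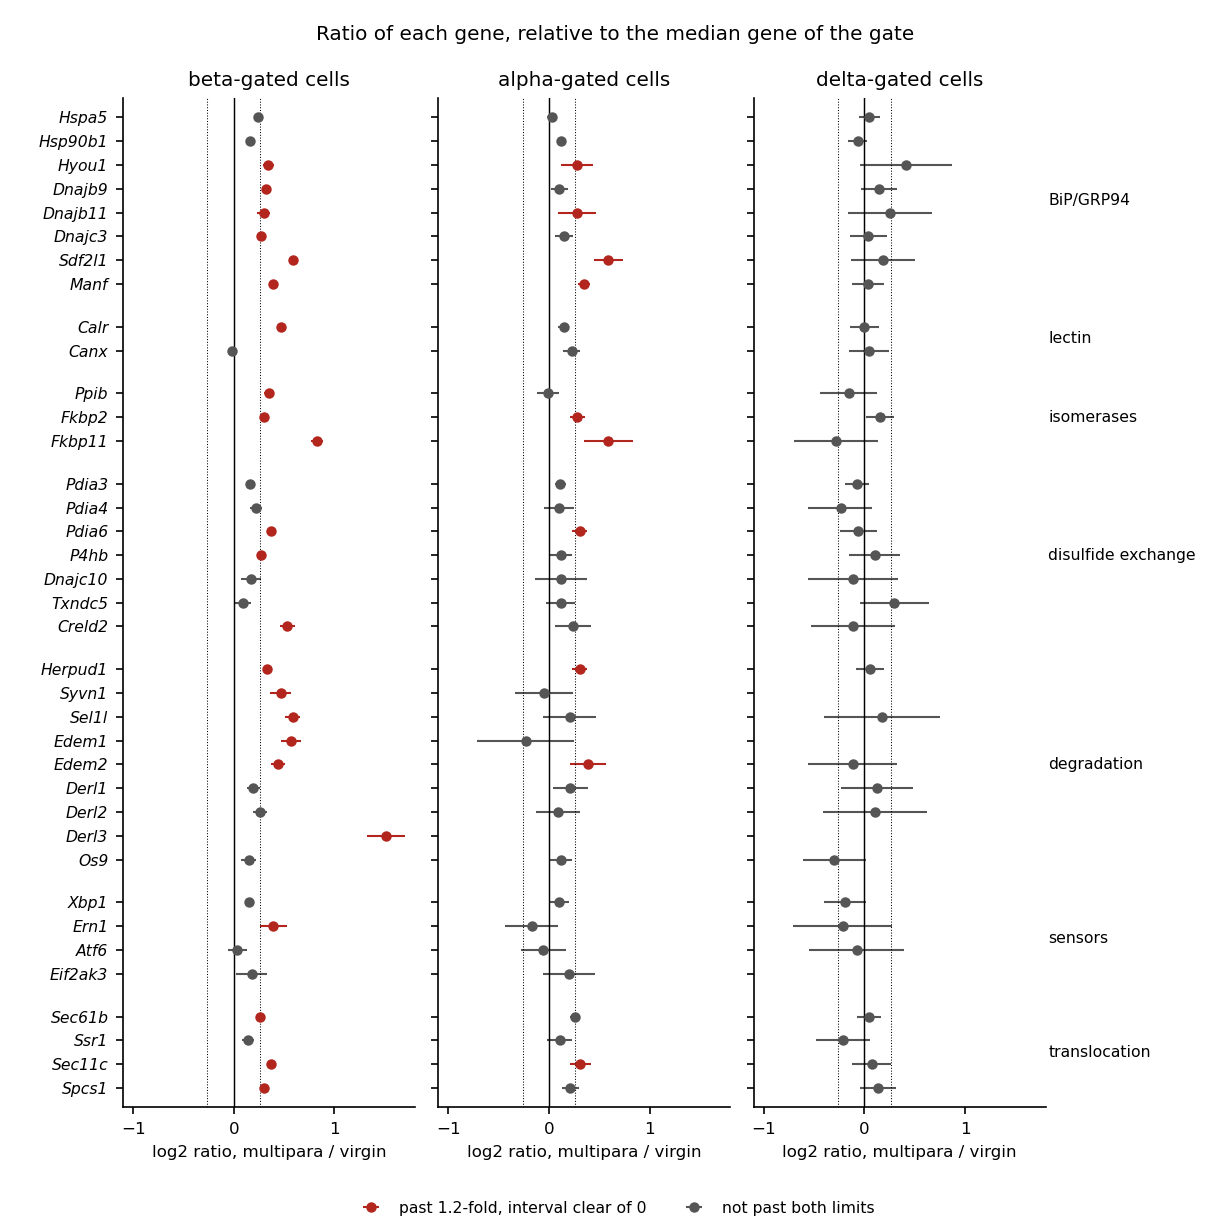
Log2 ratio of multipara over virgin for each of the 37 genes in beta-, alpha- and delta-gated cells, relative to the median gene of the gate, with exact 95% counting intervals and dotted lines at 1.2-fold. Red symbols passed both limits, 23 genes in beta, 10 in alpha and 0 in delta, and genes with fewer than 100 UMIs in a gate are left out of its panel.

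Among single beta-gated cells the summed count of the genes was shifted upward in multipara at the low, middle and high ends of its distribution. Each cell was thinned to 5500 UMIs, and shallower cells (172 and 208 of beta, 92 and 38 of alpha, 8 and 12 of delta) were left out. The summed count of the 37 genes was 41.5 ± 12.6 UMIs per cell in virgin (SD, 1653 cells) and 47.7 ± 13.5 in multipara (1382 cells). The virgin median of 40 UMIs was exceeded by 47.0% of virgin and 68.3% of multipara cells, the 10th percentile of 28 by 88.6% and 95.2%, and the 90th percentile of 58 by 9.38% and 20.04%. In alpha-gated cells the virgin median was exceeded by 48.2% and 53.6% of cells, and in delta-gated cells by 49.5% and 37.6%. Cells of 1 library are not replicates, and the SD describes cells only.

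**Figure D4:**
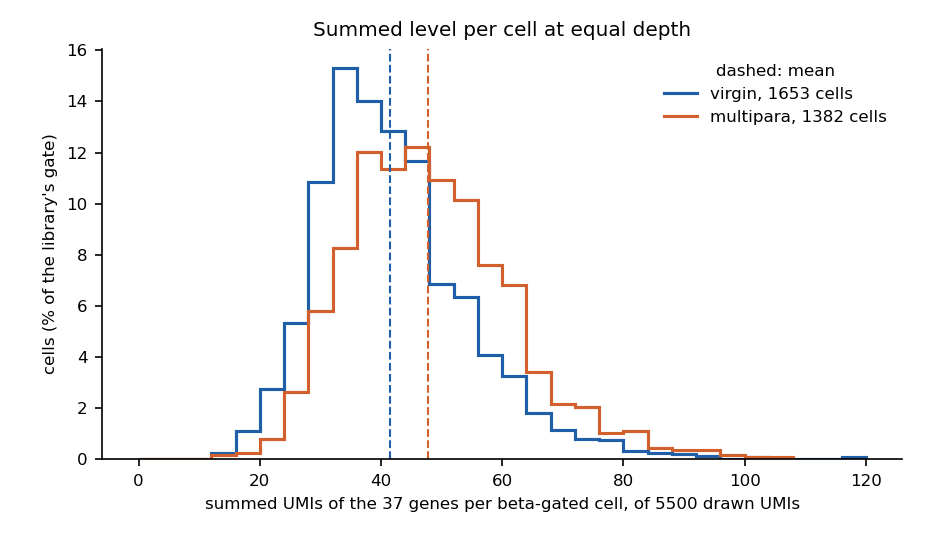
Summed UMIs of the 37 genes per beta-gated cell after thinning to 5500 UMIs, as the percentage of cells of each library in bins of 4 UMIs, with dashed lines at the means. The multipara curve lies to the right of the virgin curve, with means of 47.7 and 41.5 UMIs.

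Derl3 was seen in a minority of cells. At full depth 13.0% of virgin and 27.9% of multipara beta-gated cells had at least 1 UMI, and after thinning 3.09% (2.31 to 4.04) and 8.47% (7.05 to 10.1; exact binomial intervals). Alpha-gated cells of the same libraries, which serve as a guide to free RNA, had 1.54% and 1.39% at full depth with medians of 16370 and 17476 UMIs per cell, and 0.527% and 0.822% after thinning. Beta-gated cells with a Derl3 UMI had more UMIs of the other 36 genes than those without, 51.1 against 41.2 in virgin and 56.3 against 46.8 in multipara. For Fkbp11 the share with a UMI after thinning was 29.6% and 44.1% in beta, and 8.97% and 11.2% in alpha.

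As a description of how the genes varied together among thinned beta-gated cells, the rank correlation of each gene with the summed count of the others was highest for Hspa5, at 0.40 in both libraries (1653 and 1382 cells that share a library and a depth). It was 0.31 and 0.33 for Hsp90b1, 0.28 and 0.33 for Manf, 0.31 and 0.29 for Calr and 0.27 and 0.31 for Sdf2l1. The sensor genes were near 0, with 0.04 and 0.01 for Ern1 and 0.02 and -0.03 for Atf6, at a mean of 0.0920 and 0.122 UMIs per cell for Ern1. Values near 0 were not particular to the sensors. Derl1 had 0.003 and 0.07 and Edem1 had 0.03 and 0.06, while Derl3, with fewer UMIs, had 0.13 and 0.18. The part of low counts in these values was not tested.

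Partner genes of the same pathway, in 6 lists chosen with earlier results of these data known, had lower medians in beta-gated cells than the 37 genes. Over all 10970 genes tested in the beta gates, 8.41% were higher and 8.16% lower, so 1 gene of 9 or of 12 is near that share. Of the translocon and targeting list, 5 of 17 genes were higher in multipara and 0 lower, with a median log2 ratio of 0.24. The highest ratios of that list were those of Ssr4, a subunit of the translocon-associated complex, at 466 and 594 CPM and 0.44 (0.42 to 0.46), and Srpr, the receptor of the signal recognition particle, at 178 and 215 CPM and 0.37 (0.33 to 0.41). Of the N-glycosylation list, 3 of 14 were higher and 0 lower (median 0.20), led by Mogs, the glucosidase that starts glycan trimming, with 0.41 (0.29 to 0.52). Of the oxidative folding list, 1 of 9 was higher and 0 lower (median 0.08), and this was Ero1lb, the oxidase of the beta cell ER, at 551 and 650.5 CPM and 0.33 (0.31 to 0.35). Of the degradation partners, 3 of 13 were higher and 0 lower (median 0.15), led by the ubiquitin ligase Rnf5 at 0.34 and the conjugating enzyme Ube2g2 at 0.33. Of the ER export list, 1 of 12 was higher and 0 lower (median 0.15), which was Kdelr3, a receptor that returns ER proteins, at 3.57 and 5.28 CPM.

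Of the PERK branch, a list of genes downstream of the sensor Eif2ak3, 4 of 12 genes were higher and 0 lower. The shares over all 10970 genes tested were 8.41% and 8.16%, and the median log2 ratio of the list was 0.11. The study had reported Nupr1, Ddit3 and Atf3 as upregulated in multiparous beta cells of its single-cell data. The count over this list is therefore not independent of earlier results from these data. Nupr1, a stress-induced chromatin protein, had 87.8 CPM in virgin and 250.4 CPM in multipara, a ratio of 1.60 (1.55 to 1.65), larger than that of any of the 37 genes. Ddit3, which encodes the factor CHOP, had 155 and 219 CPM and a ratio of 0.59 (0.55 to 0.63). The other 2 genes, named after their values were seen, were Atf3, a stress-induced transcription factor, with 0.58 (0.54 to 0.62), and Ppp1r15a, a phosphatase subunit that reverses the PERK signal, with 0.38 (0.33 to 0.43). In alpha-gated cells Nupr1 had 26 and 50 UMIs, under the minimum of 100, and Ddit3 had 0.18 (0.05 to 0.30).

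**Figure D5:**
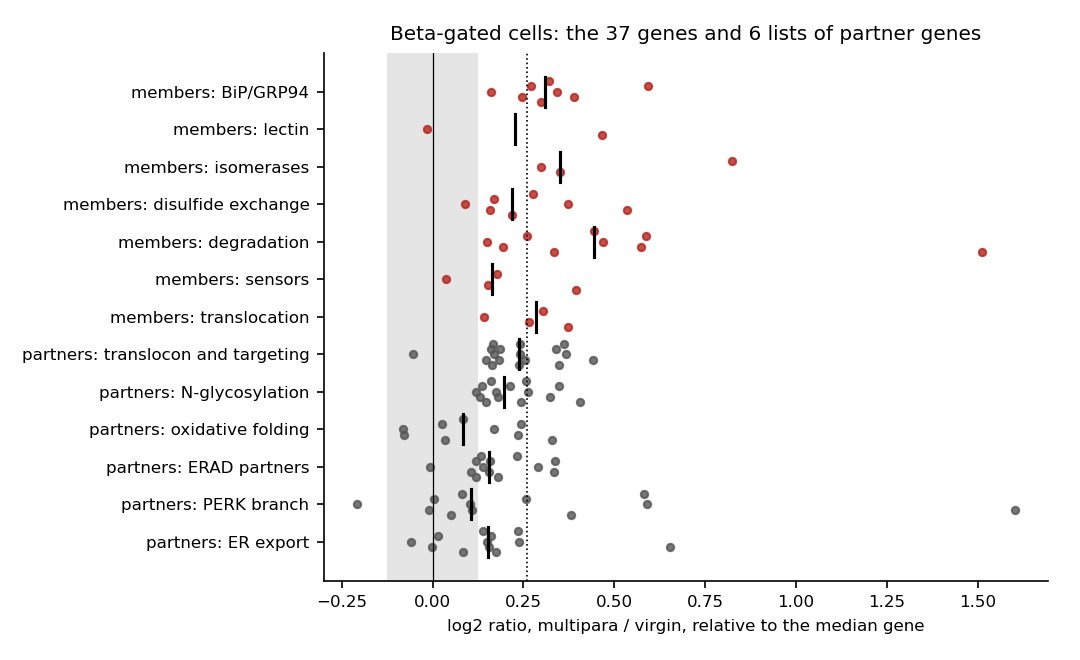
Log2 ratio of multipara over virgin in beta-gated cells for the 37 genes by function (red) and for 6 lists of partner genes (grey), each point 1 gene and each black bar the median of its row, relative to the median gene. The grey band spans the 25th to 75th percentile of the 10970 genes tested, -0.12 to 0.12, the dotted line marks their 90th percentile, 0.26, and Derl3 at 1.51 and Nupr1 at 1.60 lie farthest to the right.

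Outside the endocrine gates the counts were lower and the directions mixed. In endothelial-gated cells (265 virgin, 232 multipara), 0 of 28 genes were higher, against 6.79% of 4506 genes, and 0 were lower, against 5.17%. In macrophage-gated cells (89 and 114), 3 of 22 were higher, against 18.1% of 1387 genes, and 4 were lower, against 13%. The higher genes were Hspa5, with 1690 and 2557 CPM and a log2 ratio of 0.74 (0.63 to 0.85), Herpud1 with 432 and 619 CPM and 0.66 (0.44 to 0.89), and Os9 with 0.57 (0.01 to 1.14). The lower genes were Sec61b, Dnajc3, Sdf2l1 and Ppib. The pericyte (64 and 63 cells) and T cell (130 and 41) gates left only 5 and 9 genes above the minimum of 100 UMIs and are not described further, and the fibroblast gate held only 6 multipara cells and was not compared.

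In B cell-gated cells (182 and 42), 18 of 28 genes were lower in multipara, against 11.2% of 1397 genes, and 0 were higher, against 16.4%, with a median log2 ratio of -0.61. Hsp90b1, which antibody-secreting cells make in quantity, had 1600 and 597 CPM and a ratio of -1.17 (-1.46 to -0.89). This gate also held cells with plasma cell transcripts, since 42 virgin and 3 multipara cells had 10 or more UMIs of the 4 genes Jchain, Mzb1, Sdc1 and Igha. These genes had 22335 and 10279 UMIs in the gate, with up to 3441 and 6116 in 1 cell. Without those cells, an alternative added after seeing the data, 140 and 39 cells were left, 9 genes were tested, of which 0 were higher and 0 lower (7.66% and 5.92% of 692 genes), and the median was 0.078. Hsp90b1 then had 366 and 457 CPM. The same list made up 28.2 CPM of virgin and 1.56 CPM of multipara beta-gated cells, with up to 589 UMIs in 1 virgin cell and 3 virgin cells with 10 or more. The acinar list (10 genes, none at 0) had 1.89 and 3.03 CPM in the beta gates.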

How the data were processed

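Single-cell RNA-seq of islets was analysed from the counts as deposited by the authors, whole UMI counts per gene and barcode that were not normalized. According to the submitters' processing notes, Cell Ranger 3.1.0 and Seurat 3.0 were used with builds GRCm38 and mm10. A 3′ UMI count does not scale with transcript length. The 37 genes and all lists were chosen with earlier results of these data known. Any of the 37 could be named. Values in full were given, within each functional group, for the 2 with the highest level and the 3 with the largest ratio in beta-gated cells, and for the sensors and Xbp1. Syvn1 and Derl2 were added in full after their values were seen, to stand beside Sel1l and Derl3. Of each partner list the 2 highest and 2 lowest ratios could be named.

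Following the study's methods, a cell was kept if it had over 200 genes but below 6000, a total below 60000 UMIs, and a mitochondrial share of UMIs below 10% (4391 virgin, 3374 multipara). Scrublet in scanpy 1.11.5, with an expected rate of 0.8% per 1000 cells, then removed 61 (1.39%) and 44 (1.30%) cells as doublets. Non-endocrine gates asked for at least 3 markers of 1 list, more than of any other, with hormones under 20% of UMIs, and endocrine gates refused cells with 3 markers of a non-endocrine list at 0.1% of UMIs or more.

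UMIs were summed per gate and library, and levels were given as CPM with exact Poisson intervals. Log2 ratios of multipara over virgin were set relative to the median of all genes whose UMIs over the libraries summed to 100 or more, with exact conditional binomial 95% intervals. With 1 library per group there was no test between groups. Before use the contrast was run on Poisson counts simulated from the beta-gated means. These had no variation between cells or libraries, so the run covers counting error only. Tools were Python 3.11.15, numpy 2.4.6, pandas 2.3.3, scipy 1.17.1, matplotlib 3.10.9 and, for TMM factors, edgeR 4.0.16 in R 4.3.3. Alternatives changed the cell filter, doublet removal, gate limits, acinar content, scaling, depth, cell weights, the UMI minimum and the fold limit. Protein sequences were not used here.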

Additional observations from a re-analysis of the deposited data

Results flagged for a closer look

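In macrophage-gated cells 4 genes were lower in multipara that were higher in beta-gated cells. The log2 ratios in macrophage-gated and beta-gated cells were -0.58 and 0.27 for Dnajc3, -0.53 and 0.59 for Sdf2l1, -0.36 and 0.35 for Ppib and -0.59 and 0.27 for Sec61b. They were picked because their calls were opposite in the 2 gates. These were 4 of 22 genes tested in the macrophage gates (18.2%), near the 13% of all 1387 genes that were lower. Another 3 of the 22 were higher (13.6%), against 18.1% of all genes. The counts are thus no result about the 37 genes as a set. With 1 library per group the difference between the gates was not tested.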

How the results depend on the processing

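In beta-gated cells the median log2 ratio of the 37 genes was 0.21 on plain CPM without centering and 0.21 with equal weights for cells. There 13 and 12 genes were higher, against 4.73% and 18.3% of all genes. With no cell filter the median was 0.26 and 18 genes were higher, against 8.69% of all genes. The number was 4 with a 1.5-fold limit, against 2.1% of all genes. In alpha-gated cells 3 genes were higher and 1 lower on plain CPM, against 2.12% and 11.9% of all genes. After thinning to 5500 UMIs 6 of 35 were higher (4.57% of all genes). With a minimum of 1000 UMIs 6 of 26 were higher (3.35%), and with the 1.5-fold limit 2 of 36 (1.15%). In delta-gated cells 0 genes were called in the main setting. On plain CPM 4 of 33 were lower, against 7.87% of all genes. With other hormones under 1/10, 1 of 29 was lower (3.24%), and with Sst at 10% or more 1 of 33 (3.46%). On CPM without hormones and mitochondrial genes 1 of 33 was lower (5.02%). With no cell filter 1 of 33 was higher (4.55%). After thinning 1 of 23 was higher (3.94%) and 1 lower (3.40%). With equal weights 1 of 33 was higher (5.52%) and 1 lower (5.13%). By fold alone 2 of 33 were higher (12.0%) and 2 lower (12.5%). In beta-gated cells P4hb, Txndc5 and Ssr1 changed sign with equal weights, at -0.025, -0.052 and -0.073, and Atf6 on plain CPM, at -0.052. The median of the B cell gate changed sign, at 0.078, without the cells with 10 or more plasma cell UMIs, an alternative chosen after seeing the data. Of 592 values of single genes in beta-gated cells under the alternatives, 511 counted as unchanged. A called gene was unchanged if it was still called in the same direction. An uncalled gene was unchanged if it stayed uncalled and inside its counting interval of the main setting. Of the 37 genes, 32 were above 0 in all alternatives. The cause of these changes was not tested. Each group is 1 library, so differences between mice, days of capture and libraries cannot be told apart from pregnancy, and genes near or under 100 UMIs in the delta and smaller gates allow no statement at this depth. No paired analysis was possible because each group has 1 library.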

Other observations

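In alpha-gated cells 3 of the 6 partner lists held more genes that were higher than lower in multipara. Over all 9501 genes tested in the alpha gates, 4.89% were higher and 5.2% lower, so 1 gene of 13 or of 10 is near these shares. Of the translocon and targeting list 4 of 17 were higher and 0 lower (median log2 ratio 0.16), and of the N-glycosylation list 3 of 14 were higher and 0 lower (median 0.20), and of the degradation partners 1 of 13 was higher and 0 lower (median 0.10). Dad1, a subunit of the oligosaccharyltransferase, had the highest ratio of the N-glycosylation list in alpha-gated cells, with 315 and 381 CPM and 0.37 (0.31 to 0.43), beside 0.35 (0.32 to 0.38) in beta-gated cells. Of the PERK branch 0 of 10 were higher and 1 was lower, Cebpb, with 84.1 and 63.4 CPM and -0.31 (-0.45 to -0.18), and of the oxidative folding and ER export lists 0 were higher and 0 lower of 9 and 12.

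In delta-gated cells 2 of 16 genes of the translocon and targeting list were higher, Spcs3 with 0.43 (0.09 to 0.77) and Sec11a with 0.33 (0.04 to 0.62), and 2 of 13 genes of the N-glycosylation list were lower, Stt3b with -0.64 (-1.26 to -0.03) and Prkcsh with -0.38 (-0.74 to -0.02). There 2 of 7 genes of the oxidative folding list were lower, Prdx4, a peroxidase of the ER, with 122 and 84.7 CPM and -0.44 (-0.74 to -0.15), and Txndc11 with 67 and 33 UMIs and -0.76 (-1.41 to -0.14). Of the PERK branch 2 of 8 were higher there, named after their values were seen, Atf3 with 809 and 1007 CPM and Ppp1r15a with 229 and 260 CPM, and 0 of 10 genes each of the degradation partners and ER export were higher or lower. Over all genes tested in the delta gates, 4.83% were higher and 3.52% lower.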
